A study of Homo sapiens with 22 samples.

Results

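RAD21 peaks that lay at no CTCF peak and away from the ends of protein-coding genes were examined in hTERT RPE-1, a human line derived from retinal pigment epithelium and immortalised with telomerase. A peak was taken when it stood in the RAD21 list of clone NIPBL-D7 in DMSO and overlapped by at least 1 bp a peak of the RAD21 list of clone NIPBL-A2 in DMSO. The clones are called D7 and A2 below. It also had to overlap no CTCF peak of wild-type cells and to have its summit more than 1 kb from both ends of every protein-coding gene in the RefSeq GRCh38.p14 table. This gave 2186 of the 37566 RAD21 peaks of D7 in DMSO, or of the 31719 found in both DMSO lists; they are called CTCF-free distal peaks below. Distal means only this distance, and no enhancer mark was measured. The peaks were selected on both DMSO RAD21 lists and the CTCF list, so their values there are descriptions.

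The series held chromatin immunoprecipitation libraries (ChIP-seq), with 12 peak lists and 1 library in every group. In A2, NIPBL carried the degron as mCherry-P2A-FKBP12(F36V)-NIPBL, and in D7 as mGreenLantern-P2A-FKBP12(F36V)-NIPBL. FKBP12(F36V) is a domain through which the small molecule dTAGV-1 directs a protein to degradation. Asynchronous cells of each clone were given DMSO for 24 h, or dTAGV-1 for 4 h or 24 h, and RAD21 was precipitated with about 10% mouse NIH/3T3 chromatin added. STAG1 and STAG2 came from D7 with no treatment named and shared 1 input, PDS5A from D7 in DMSO with the input of its RAD21 library, HA from A2, and CTCF and WAPL from wild-type cells. Each clone is 1 line and stands for itself. NIPBL protein was not measured in these files, so the degree of its loss is not known here. Read totals were not given, and the lowest local background pileup recovered from each list served as its depth. In A2 it was 1.87 for DMSO, 3.16 for 4 h and 2.83 for 24 h, and in D7 3.00, 4.05 and 3.07. STAG1 had 1.77, STAG2 3.14, PDS5A 2.76, WAPL 2.97 and CTCF 13.4, and the depth of HA is unknown.

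Cohesin is a ring-shaped complex that holds DNA and extrudes it into loops. NIPBL, with its partner MAU2, activates the cohesin ATPase and is needed for loading and extrusion. RAD21 is the kleisin that closes the ring. It is bound by STAG1 or STAG2, which are alternative subunits, and by PDS5A or PDS5B, which compete with NIPBL and, with WAPL, release cohesin from DNA. CTCF stops moving cohesin at its motif, and cohesin found away from CTCF is often described at active promoters and enhancers. Enhancers of epithelial and mesenchymal cell lines are commonly bound by AP-1, the dimer of JUN and FOS proteins, and by TEAD factors, while CpG-rich promoters carry GC boxes, the site of SP factors.

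Some of these peaks cover a start site, since the rule removed only peaks at the ends of protein-coding genes and a gene can also start within its body. Of 2066 CTCF-free distal peaks on the chromosomes covered by the RefSeq promoter table (GRCh38.p14), 248 overlapped a promoter window. Each window runs from 250 bases before to 50 after a gene start. There are 22156 windows of protein-coding genes for 19974 such genes, so some genes have more than 1 start in it. The 4 windows below are examples of a contrast in CpG and GC boxes between peaks with PDS5A and peaks with STAG2 and no PDS5A. They are the 2 of each kind with the highest D7 DMSO fold among peaks whose summit lay in the window. The first, on the minus strand at chr3:177197433-177197732, belongs to TBL1XR1, a subunit of the NCoR/SMRT corepressor, and the second, on the minus strand at chr6:19804710-19805009, to the non-coding RNA gene LNC-LBCS. The third, on the plus strand at chr3:101940609-101940908, is that of RDUR, and the fourth, on the minus strand at chr12:75781416-75781715, that of LOC105369846, both non-coding RNA genes. Sequences run 5′ to 3′ on the strand of the gene. Capitals mark AP-1 (TGANTCA) and GC box (GGGCGG) matches on either strand.
TBL1XR1: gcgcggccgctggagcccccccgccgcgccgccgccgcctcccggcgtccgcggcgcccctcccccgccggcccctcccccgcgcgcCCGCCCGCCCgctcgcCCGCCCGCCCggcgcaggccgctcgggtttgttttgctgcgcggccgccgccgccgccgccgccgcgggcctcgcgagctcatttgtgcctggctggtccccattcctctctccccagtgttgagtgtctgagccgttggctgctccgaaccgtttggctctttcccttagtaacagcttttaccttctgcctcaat
LNC-LBCS: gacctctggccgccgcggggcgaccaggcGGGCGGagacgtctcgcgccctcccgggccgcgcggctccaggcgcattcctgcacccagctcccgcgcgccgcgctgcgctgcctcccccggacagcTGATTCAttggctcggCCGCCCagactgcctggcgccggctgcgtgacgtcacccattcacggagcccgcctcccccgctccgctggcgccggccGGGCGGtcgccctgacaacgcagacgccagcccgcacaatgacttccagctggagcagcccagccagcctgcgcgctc
RDUR: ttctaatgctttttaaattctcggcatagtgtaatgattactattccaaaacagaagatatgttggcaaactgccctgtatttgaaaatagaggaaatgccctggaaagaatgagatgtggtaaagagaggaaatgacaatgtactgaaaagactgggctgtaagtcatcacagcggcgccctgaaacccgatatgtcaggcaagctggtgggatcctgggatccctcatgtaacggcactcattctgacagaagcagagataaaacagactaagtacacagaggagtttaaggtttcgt
LOC105369846: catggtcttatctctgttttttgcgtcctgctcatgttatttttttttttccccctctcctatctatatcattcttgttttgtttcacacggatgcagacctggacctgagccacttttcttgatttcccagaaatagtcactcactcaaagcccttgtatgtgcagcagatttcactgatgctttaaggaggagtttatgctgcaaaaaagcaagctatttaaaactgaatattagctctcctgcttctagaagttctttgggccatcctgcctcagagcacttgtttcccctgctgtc

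The TBL1XR1 window held 44 CpG dinucleotides and 4 GC boxes, and the LNC-LBCS window 41 CpG, 3 GC boxes and 1 AP-1 match. RDUR and LOC105369846 had 6 and 2 CpG and neither motif. The AP-1 match thus stood in a PDS5A window, opposite to the AP-1 shares over all windows given below. The next PDS5A window by fold, that of LOC124905969, was less clear. It held 7 CpG, 1 GC box and 1 AP-1 match, and its peak also had STAG2 (2.67). The next STAG2 window, that of ARID5B, held 12 CpG and neither motif. The TBL1XR1 peak had a STAG1 fold of 9.12 and a PDS5A fold of 5.24 and no STAG2 peak. RAD21 there had a fold of 14.7 in A2 in DMSO and no peak at 4 h or 24 h, and of 17.0 in D7 in DMSO, 3.84 at 4 h and 4.14 at 24 h. At RDUR the STAG2 fold was 7.0 with no STAG1 or PDS5A peak, and RAD21 had 8.52 in A2 in DMSO, 4.31 at 4 h and no peak at 24 h, and 8.75 in D7 in DMSO, no peak at 4 h and 4.09 at 24 h. A fold is the authors' enrichment of the summit over local background and was compared only within its own list.

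The CTCF-free distal peaks were weak. Their D7 DMSO fold ran from 2.16 to 22.0 with a median of 4.63. The median was 15.1 for the 24764 CTCF-overlapping distal peaks and 4.17 for the 990 CTCF-free peaks at gene ends, the 2 sets used for comparison below, both also taken from the peaks of both DMSO lists. Their median width was 597 bp, from 337 to 5195 bp. The nearest protein-coding gene end was a median of 52696 bp away, against 23676 bp for CTCF-overlapping distal peaks. By contrast, the share inside protein-coding genes was 46.6% (95% Wilson interval 44.5 to 48.7) and that of CTCF-overlapping distal peaks 47.4% (46.8 to 48.0). Another CTCF-free distal peak lay within 10 kb of 431 of them, or 19.7%, and a CTCF peak within 1 kb of 228, or 10.4%. All intervals in the text cover counting error over peaks only and say nothing of the spread between libraries.

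At the edges of the rule, a peak 1001 bp from an end of ATE1 was included at a fold of 4.38 and one 997 bp from an end of CAMTA1 was not, at 5.34. The smallest gap to a CTCF peak was 3 bp, beside SATB1, at a fold of 4.63. The smallest overlap that removed a peak was 1 bp, beside DNAJC6, at 6.59.

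At 4 h of dTAGV-1, few of the CTCF-free distal sites had a RAD21 peak in A2 and more had one in D7. With the full lists, the shares of the clones at 24 h were close. In A2, 176 of 2186 (8.05%, 6.98 to 9.27) overlapped a RAD21 peak at 4 h, where 69.3% of all peaks of both DMSO lists did, and 712 (32.6%, 30.6 to 34.6) at 24 h, where 75.4% of all did. In D7, 1278 (58.5%, 56.4 to 60.5) did at 4 h against 86.6% of all, and 769 (35.2%, 33.2 to 37.2) at 24 h against 78% of all. All 4 shares lay below those of all peaks, and the lowest and the highest were the 4 h lists of the 2 clones. The A2 list at 4 h, with the fewest of these peaks, had a higher background pileup than the DMSO and 24 h lists of that clone, and the D7 list at 4 h the highest of the 6; the part of depth in the shares was not tested.

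Against CTCF-overlapping distal peaks, the CTCF-free distal share was lower by 72.8 percentage points in A2 at 4 h (80.8% against 8.05%; Newcombe interval of the difference −73.9 to −71.5). The difference was −50.8 points at 24 h (−52.8 to −48.8), and in D7 −30.5 points at 4 h (−32.6 to −28.4) and −48.8 points at 24 h (−50.8 to −46.7). CTCF-free peaks at gene ends differed from the distal ones in opposite directions in the clones. In A2 the distal peaks were overlapped more often, by 4.11 points at 4 h (2.35 to 5.71) and 10.3 points at 24 h (7.03 to 13.5). In D7 they were overlapped less often, with differences of −14.3 points at 4 h (−17.7 to −10.7) and −6.94 points at 24 h (−10.6 to −3.29). With all 6 RAD21 lists reduced to an equal length, 79 CTCF-free distal peaks were left, of which 39.2% were overlapped in A2 at 4 h, 55.7% in A2 at 24 h, 44.3% in D7 at 4 h and 43.0% in D7 at 24 h. With −log10 q at 10 or above in all 6 lists the shares were 3.87%, 28.2%, 47.6% and 21.5%.

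**Figure D1:**
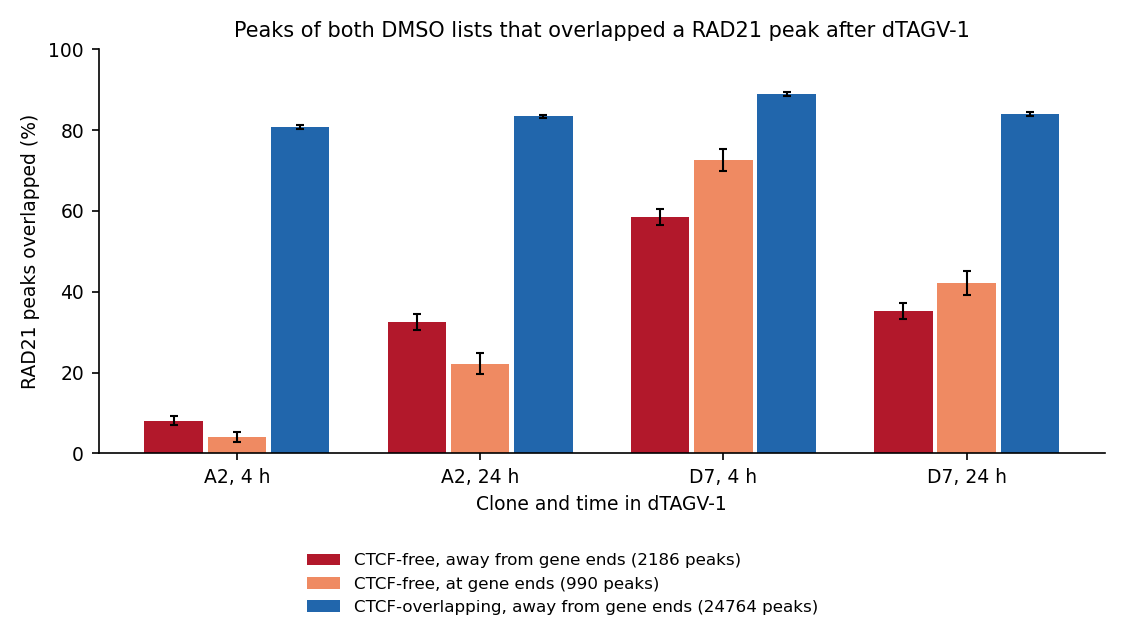
Share of RAD21 peaks of both DMSO lists (y axis, percent) that overlapped a RAD21 peak in each dTAGV-1 list (x axis, clone and time), with 95% Wilson intervals, for 3 sets of peaks. The CTCF-free distal peaks (red) run from 8.05% to 58.5%, while CTCF-overlapping distal peaks (blue) stay at or above 80.8%.

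The order of the times differed between the clones. In A2, 585 CTCF-free distal peaks had a RAD21 peak at 24 h and none at 4 h, 49 at 4 h only, 127 at both times and 1425 at neither. In D7, 639 had one at 4 h and none at 24 h, 130 at 24 h only, 639 at both times and 778 at neither. A RAD21 peak was thus listed at 24 h more often than at 4 h in A2 and less often in D7. At equal list length the 79 peaks left showed this order in A2, with 39.2% and 55.7%, and close shares in D7, with 44.3% and 43.0%. At 24 h the totals of the clones were closer, with 712 sites listed in A2 and 769 in D7. The sites themselves often differed, with 412 listed in both, 300 in A2 alone and 357 in D7 alone. The splits by time and by clone are not given for all peaks of both DMSO lists, so they describe these sites only. Over the 4 dTAGV-1 lists, 636 sites (29.1%, 27.2 to 31.0) had no peak in any, where 6.34% of all peaks of both DMSO lists had none, and 95 (4.35%, 3.57 to 5.28) had a peak in every list, where 59.7% of all did.

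Among the 95, the strongest in D7 in DMSO lay 633337 bp from PKDCC, which encodes a secreted protein kinase, on chromosome 2 from 41414278 to 41415010. Its RAD21 fold was 8.41, 6.96 and 7.84 in A2 with DMSO, dTAGV-1 for 4 h and dTAGV-1 for 24 h, and 22.0, 12.8 and 14.2 in D7. It carried STAG1 (fold 13.4) and PDS5A (8.77) and no STAG2 peak. The second strongest CTCF-free distal peak of all lay 764754 bp from PKDCC, on chromosome 2 from 41282941 to 41283601. RAD21 there had 8.36, no peak and 8.10 in A2 and 20.6, 14.6 and 12.0 in D7. This second peak carried STAG1 (11.9), STAG2 (6.52) and PDS5A (7.39) and missed only the A2 list at 4 h. A peak on chromosome X from 13398109 to 13399342, 78493 bp from ATXN3L, had RAD21 folds of 15.5, 4.80 and 9.67 in A2 and 14.9, 3.65 and 4.77 in D7, with STAG1 (7.95) and STAG2 (12.6). One on chromosome 2 from 139946564 to 139947166, 284532 bp from the lipoprotein receptor gene LRP1B, had 30.5, 27.9 and 45.7 in A2 and 14.3, 11.2 and 20.7 in D7, with STAG1 alone (7.58). The fourth, on chromosome 1 from 55718647 to 55719640, 503712 bp from the deubiquitinase gene USP24, had 12.1, 4.17 and 4.76 in A2 and 12.2, 4.32 and 4.46 in D7, with STAG1 (13.4) and STAG2 (11.3). All 4 lay outside protein-coding genes and had no HA or WAPL peak.

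Among the 636 sites with no RAD21 peak after dTAGV-1, the strongest lay on chromosome 7 from 46360753 to 46361362, 439742 bp from IGFBP3, which encodes a binding protein of insulin-like growth factors. It had a fold of 10.6 in A2 and 11.7 in D7, both in DMSO, with STAG1 (9.35) and PDS5A (11.8). The next lay on chromosome 6 from 14706343 to 14706942, 539472 bp from JARID2, which encodes a Polycomb cofactor, with RAD21 folds of 6.99 and 10.1 and with STAG1 (10.7) and STAG2 (6.01). A site on chromosome 3 from 30347571 to 30348121, 256634 bp from LOC105377015, had folds of 7.86 and 9.75 and STAG2 alone (11.8). The fourth, inside MTSS2 on chromosome 16 from 70679934 to 70680456, had 12.2 and 9.39 with STAG1 (5.90) and PDS5A (10.5). The named sites thus included STAG1 without STAG2, STAG2 without STAG1 and both, but they were picked by fold and do not give the proportions. Of all CTCF-free distal peaks, 148 of 648 with STAG1 only and 163 of 433 with STAG2 only had no RAD21 peak after dTAGV-1. Among those with both it was 42 of 410, and among those with neither 283 of 695.

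Weak peaks were in most cases found again less often than strong ones, so the shares were also set side by side within bands of the D7 DMSO fold, which were chosen after the data had been seen. In the band from 4 to below 6, which held 1008 CTCF-free distal peaks, 7.14% were overlapped in A2 at 4 h against 47.2% of CTCF-overlapping distal peaks, a difference of −40.0 points (−42.4 to −37.4). At 24 h in A2 the difference was −18.2 points (−21.6 to −14.7), and at 24 h in D7 −20.3 points (−23.8 to −16.8). In D7 at 4 h it was −4.66 points (−8.27 to −1.07), and in the band below 4 it was −0.0874 points (−5.50 to 5.34). It was larger in the upper bands, at −9.37 points (−14.7 to −4.30) from 6 to below 8 and −19.0 points (−26.5 to −13.0) at 8 and above. In the band from 4 to below 6, CTCF-free peaks at gene ends were overlapped at 74.2% in D7 at 4 h, against 54.8% of distal ones. Distal minus gene end was −19.5 points there (−24.6 to −14.0) and −10.7 points in D7 at 24 h (−16.4 to −4.98). In A2 it was 6.21 points at 24 h (0.917 to 11.2). At 4 h the A2 difference of 2.30 points had an interval that included 0 (−0.671 to 4.76).

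**Figure D2:**
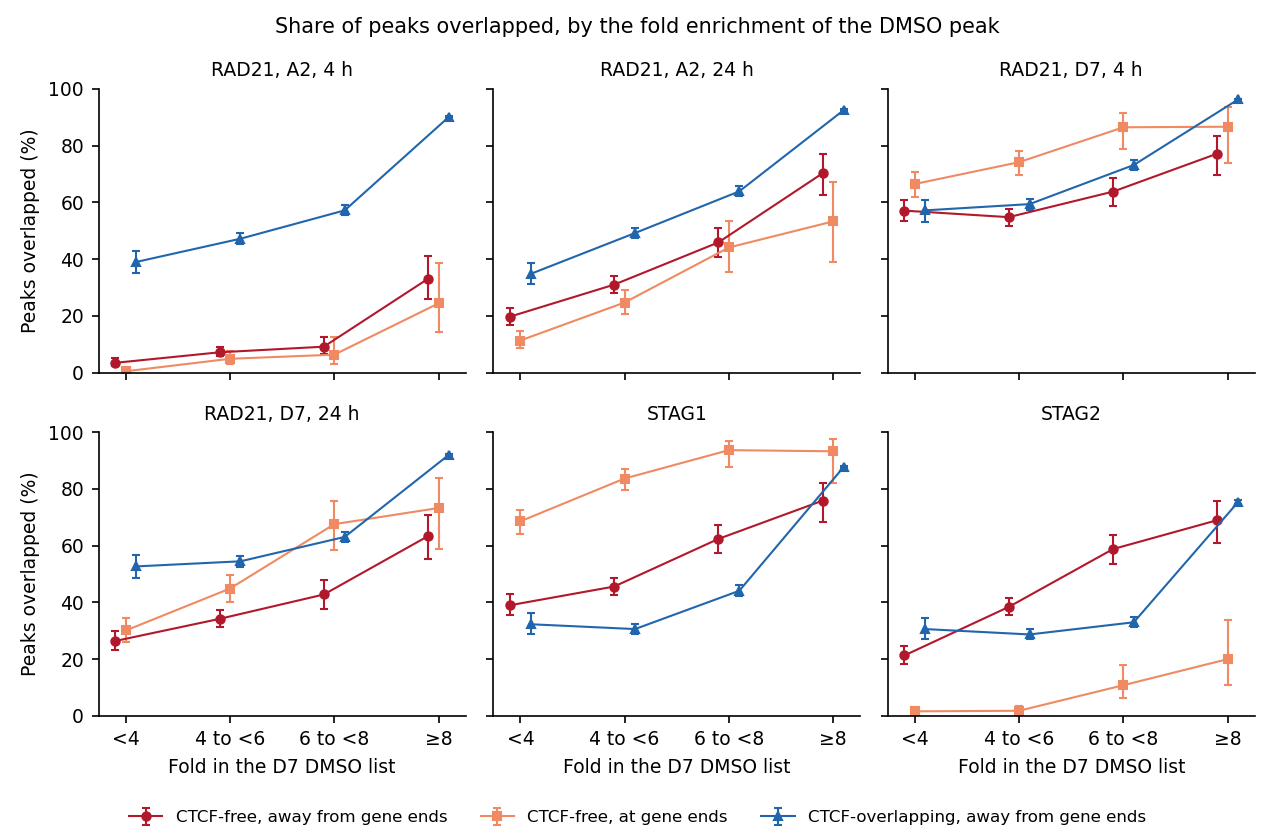
Share of peaks overlapped (y axis, percent, with 95% Wilson intervals) by band of the D7 DMSO fold (x axis), for the 4 dTAGV-1 RAD21 lists, STAG1 and STAG2. In A2 at 4 h the CTCF-free distal peaks (red) lie at 3.43%, 7.14%, 9.12% and 33.1% from the lowest to the highest band, and CTCF-overlapping distal peaks (blue) at 39.0%, 47.2%, 57.2% and 90.2%.

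STAG1, STAG2 and PDS5A sat at these sites in other proportions than at gene ends or at CTCF. STAG1 peaks overlapped 1058 CTCF-free distal peaks (48.4%, 46.3 to 50.5; 75.2% of all peaks of both DMSO lists) and STAG2 peaks 843 (38.6%, 36.5 to 40.6; 57.2% of all). PDS5A overlapped 315 (14.4%, 13.0 to 15.9; 61.4% of all). WAPL overlapped 0 of 2186, which allows a share of up to 0.137% (8.26% of all). That limit is for listed peaks only, as the WAPL list held 2667 peaks, against 26879 for STAG1, 22518 for STAG2 and 28887 for PDS5A. At CTCF-free gene-end peaks WAPL overlapped 1 of 990, and the difference of −0.101 points had an interval that included 0 (−0.570 to 0.0931). Most WAPL lay at strong CTCF-overlapping distal peaks: 12.8% of those with a fold of 8 or above had it, and 0.494%, 0.307% and 0.184% in the bands below 4, from 4 to below 6 and from 6 to below 8. HA overlapped 48 (2.20%, 1.66 to 2.90; 0.659% of all). STAG2 was more frequent at the distal sites than at CTCF-free peaks at gene ends, where 3.54% had it, a difference of 35.0 points (32.6 to 37.3). STAG1 and PDS5A were less frequent at the distal sites, with 78.5% and 58.3% at gene ends and distal minus gene-end differences of −30.1 points (−33.3 to −26.7) and −43.9 points (−47.2 to −40.4). With the STAG1, STAG2 and PDS5A lists cut to equal length, STAG1 overlapped 26.5%, STAG2 38.6% and PDS5A 7.78% of the distal peaks. The order of STAG1 and STAG2 thus changed. The distal minus gene-end difference shrank to −3.97 points for STAG1 (−7.42 to −0.604) and −26.6 points for PDS5A (−29.8 to −23.4). For STAG2 it stayed at 35.0 points.

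Relative to CTCF-overlapping distal peaks, the direction for STAG1 and STAG2 depended on strength. Over all folds the CTCF-free distal peaks had less of both, by −27.2 points for STAG1 (−29.3 to −25.0) and −26.2 points for STAG2 (−28.3 to −24). In the band from 4 to below 6 they had more of both, with 45.6% against 30.6% for STAG1, a difference of 15.1 points (11.5 to 18.6), and 38.4% against 28.7% for STAG2, a difference of 9.68 points (6.24 to 13.2). In the band from 6 to below 8 the STAG1 difference was 18.3 points (12.9 to 23.5), and STAG2 overlapped 58.8% and 33.0%, a difference of 25.8 points (20.4 to 31.1). Below 4 STAG1 was higher by 6.76 points (1.49 to 11.9), whereas STAG2 was lower, with −9.33 points (−14.1 to −4.52). At 8 and above the CTCF-free distal peaks had less STAG1, by −11.9 points (−19.5 to −5.62), and the STAG2 difference of −6.43 points had an interval that included 0 (−14.4 to 0.558). PDS5A stayed lower within the band from 4 to below 6, at 12.9% against 25.6%, a difference of −12.7 points (−15.2 to −9.92).

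**Figure D3:**
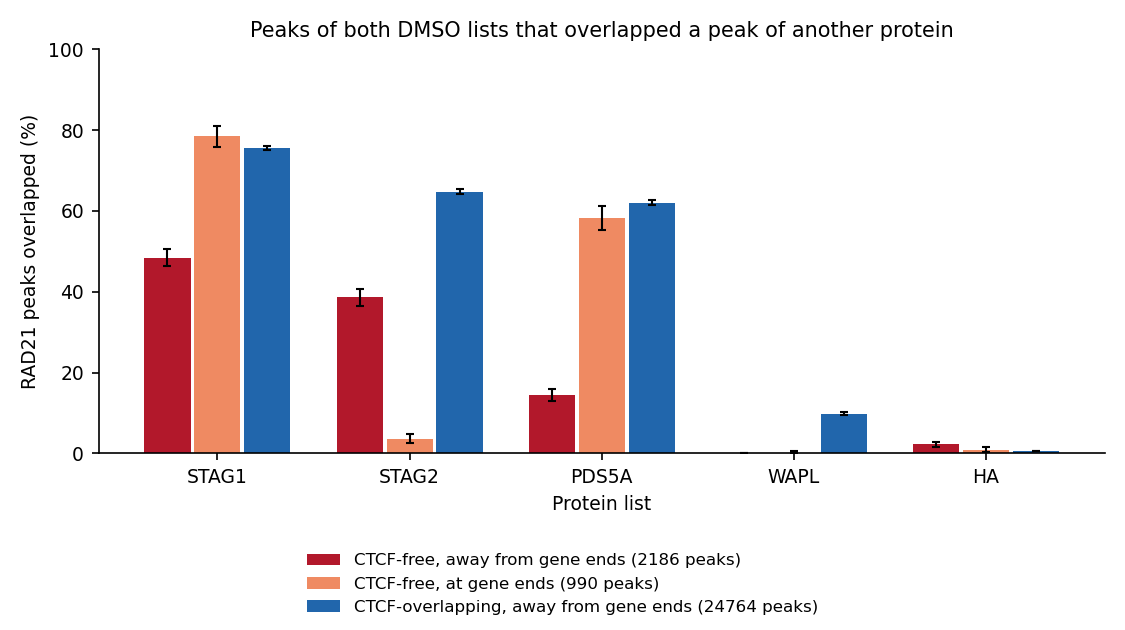
Share of RAD21 peaks of both DMSO lists (y axis, percent, with 95% Wilson intervals) that overlapped a peak of STAG1, STAG2, PDS5A, WAPL or HA (x axis) in 3 sets of peaks. STAG2 overlapped 38.6% of CTCF-free distal peaks (red) and 3.54% of CTCF-free gene-end peaks (orange), and PDS5A 14.4% and 58.3%.

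By the STAG lists that held them, the CTCF-free distal peaks fell into 648 with STAG1 only, 410 with both, 433 with STAG2 only and 695 with neither. PDS5A was most frequent with STAG1 alone and least frequent with STAG2 alone. It overlapped 209 of the STAG1-only peaks (32.3%, 28.8 to 35.9), 31 of those with both (7.56%, 5.38 to 10.5), 1 of the STAG2-only peaks (0.231%, 0.0408 to 1.30) and 74 with neither (10.6%, 8.57 to 13.2). STAG1-only minus STAG2-only was 32.0 points (28.4 to 35.7), and 30.3 points (24.9 to 35.7) in the fold band from 4 to below 6. The low PDS5A share of STAG2-only peaks was shared with CTCF-overlapping distal peaks, where it was 7.02% (6.06 to 8.13) against 77.1% (75.9 to 78.2) of STAG1-only peaks. Peaks with both STAG proteins stood apart: PDS5A overlapped 7.56% of them at CTCF-free distal sites and 75.5% (74.7 to 76.2) at CTCF-overlapping distal sites, or 4.46% (2.18 to 8.92) and 34.4% (28.4 to 40.9) in the band from 4 to below 6.

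The classes also differed in position and in the dTAGV-1 lists. STAG1-only peaks lay inside protein-coding genes in 58.6% of cases (54.8 to 62.4) and STAG2-only peaks in 33.7% (29.4 to 38.3). A start of the promoter table lay within 1 kb of 28.3% (24.9 to 32.0) of STAG1-only peaks and 3.86% (2.39 to 6.17) of STAG2-only peaks, a difference of 24.5 points (20.3 to 28.4), and the median distance to such a start was 8631 bp and 46921 bp. In D7 at 4 h, RAD21 was listed at 71.5% of STAG1-only and 40.6% of STAG2-only peaks, a difference of 30.8 points (24.9 to 36.4), while the 24 h list held 41.7% and 29.3%, which differ by 12.3 points (6.52 to 17.9). The order was reversed in A2, with 5.25% and 10.4% in the 4 h list (−5.15 points, −8.69 to −1.92) and 26.5% and 34.6% in the 24 h list (−8.10 points, −13.7 to −2.51). Peaks with both STAG proteins, whose median fold of 5.85 was the highest of the 4 classes, had the highest share in each list, 17.6% and 63.2% in A2 and 74.4% and 52.4% in D7 at 4 h and 24 h, though in D7 at 4 h it was close to that of STAG1-only peaks. STAG1, STAG2 and PDS5A were mapped in D7 alone.

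**Figure D4:**
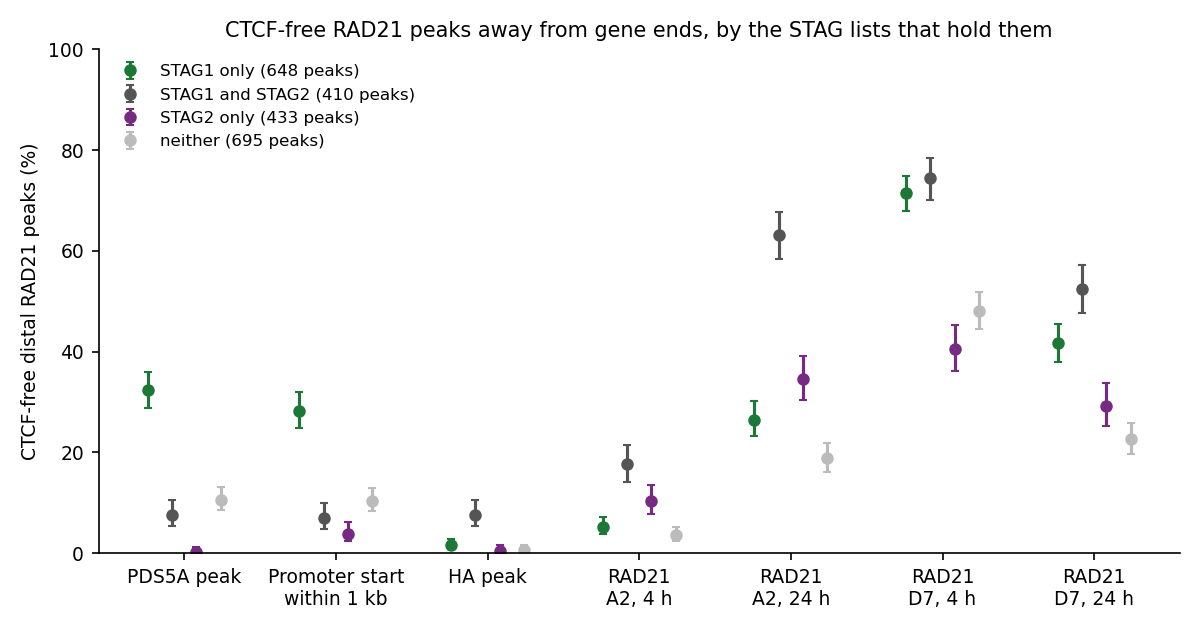
Share of CTCF-free distal RAD21 peaks (y axis, percent, with 95% Wilson intervals) that had a PDS5A peak, a promoter start within 1 kb, an HA peak or a RAD21 peak in each dTAGV-1 list (x axis), for 4 classes by STAG peak. STAG1-only peaks (green) lie above STAG2-only peaks (purple) for PDS5A (32.3% and 0.231%) and in D7 at 4 h (71.5% and 40.6%), and below them in A2 at 24 h (26.5% and 34.6%).

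The strongest peaks of each class differed among themselves. With STAG1 and no STAG2, the leading peaks were the PKDCC, TBL1XR1 and LRP1B peaks given above. RAD21 was listed at the PKDCC and LRP1B peaks in all 4 dTAGV-1 lists and at TBL1XR1 in D7 alone, and the LRP1B peak had no PDS5A. With STAG2 and no STAG1, the first lay on chromosome 6 from 140537538 to 140538333, 1148080 bp from LOC124901415, with a STAG2 fold of 10.1. RAD21 there had 10.8, 5.68 and 8.10 in A2 with DMSO, dTAGV-1 for 4 h and dTAGV-1 for 24 h, and 12.5, no peak and 4.62 in D7. The second, inside EPG5, an autophagy gene, on chromosome 18 from 45802554 to 45803661, had STAG2 at 5.67 and RAD21 at 10.1 in A2 in DMSO only and 10.4, 4.81 and 4.83 in D7. The third lay on chromosome 1 from 218584557 to 218585098, 140258 bp from TGFB2, which encodes a TGF-beta ligand. Its STAG2 fold was 6.28 and its RAD21 fold 4.13, no peak and 5.75 in A2 and 9.75, 4.26 and 4.75 in D7. PDS5A overlapped none of these 3 peaks.

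A share of the set lay at start sites that the gene-end rule did not remove. A promoter-table start lay within 1 kb of 284 of 2066 CTCF-free distal peaks (13.7%, 12.3 to 15.3), against 4.83% (4.57 to 5.11) of CTCF-overlapping distal peaks, and 165 of the 284 starts were of protein-coding genes and 119 of long non-coding RNA genes. In their partners these 284 were closer to gene-end peaks than the rest were. STAG1 overlapped 70.4% of them and 44.8% of the other 1782, a difference of 25.6 points (19.6 to 31.1). STAG2 overlapped 15.1% and 42.6%, a difference of −27.5 points (−31.9 to −22.3), and PDS5A 41.9% and 10.2%, a difference of 31.7 points (25.9 to 37.6). The 2 widest peaks belonged here or beside it: one of 5195 bp inside FOXP1, a forkhead factor gene, had its summit 1285 bp from a start, and one of 3917 bp inside TCF7L2, a gene for a Wnt pathway factor, 283 bp. Both had STAG1 and PDS5A and no STAG2 peak.

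**Figure D5:**
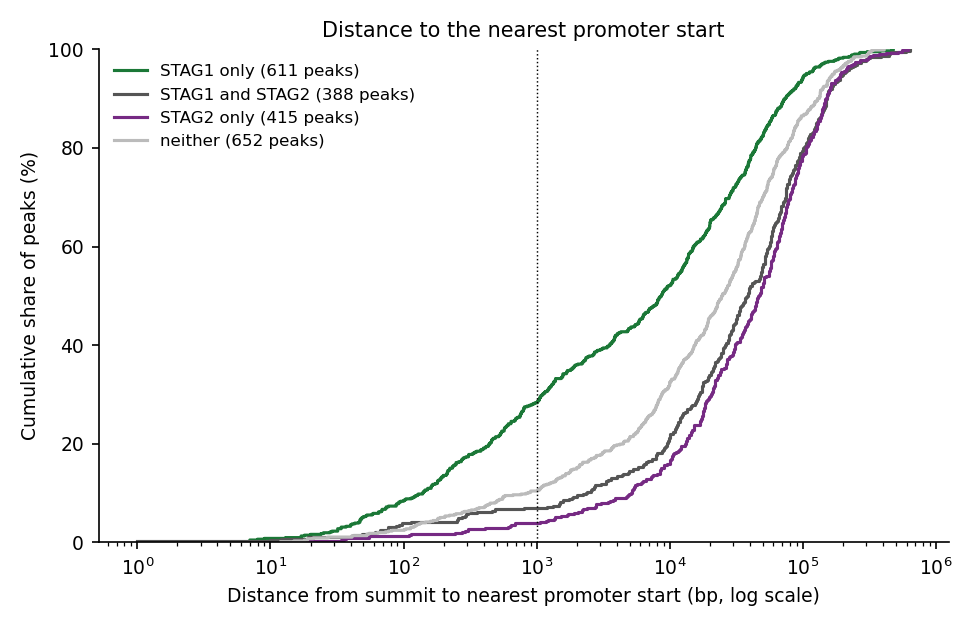
Cumulative share of CTCF-free distal RAD21 peaks (y axis, percent) by the distance from the summit to the nearest promoter-table start (x axis, bp, log scale; the dotted line marks 1 kb), for 4 classes by STAG peak. STAG1-only peaks (green) have a median of 8631 bp, STAG2-only peaks (purple) 46921 bp and peaks with both (dark grey) 38286 bp.

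The promoter windows under these peaks, 319 in all, were searched on both strands for 12 motifs. Windows under PDS5A peaks were richer in CpG and GC boxes, as in the TBL1XR1 and LNC-LBCS sequences. The median number of CpG was 29 in the 155 windows with PDS5A and 13.5 in the 164 without, against 30 under CTCF-free gene-end peaks and 14 in all 35116 windows of the table. A GC box (GGGCGG) was found in 78.1% with PDS5A and 39.6% without, a difference of 38.4 points (28.0 to 47.6), and in 45.0% of all windows. AP-1 (TGANTCA) was found in 8.39% and 17.7%, a difference of −9.30 points (−16.7 to −1.86), with 7.71% of all windows and 11 of the 49 under STAG2 peaks. Over all 319 windows AP-1 was at 13.2%, which was 5.46 points (2.17 to 9.62) above all windows and 9.08 points (5.53 to 13.4) above those under CTCF-free gene-end peaks. The forkhead motif (TGTTTAC) was found in 0.645% with PDS5A and 7.93% without, with 3.42% of all windows, and the E-box (CANNTG) in 51.0% and 75.6%, with 68.7% of all. Windows that share a peak are not independent, and a match describes letters and not binding. The median G+C was 69.7% in windows with PDS5A, 57.2% without and 52.0% under STAG2 peaks. It was 64.3% over the 319 windows, 68.8% under CTCF-free gene-end peaks and 58.7% in all windows. A GC box itself holds a CpG, and the part of base composition in the motif shares here and below was not tested.

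For the other motifs the interval of the difference between windows with and without PDS5A included 0. They were TEAD (CATTCC, 15.4% of the 319 windows and 14.0% of all), RUNX (TGTGGT, 12.9% and 13.1%), ETS (CCGGAAG, 7.52% and 10.3%), NFY (CCAAT, 32.0% and 34.6%), CRE (TGACGTCA, 2.82% and 1.85%), YY1 (AAGATGGC, 1.88% and 2.89%) and C/EBP (TTGCNNAA, 7.84% and 10.5%). The CTCF core motif was in 0 of the 319 windows, 0.470% of all windows and 2.37% of those under CTCF-overlapping peaks of both DMSO lists. Its difference from all windows, −0.47 points, had an interval that included 0 (−0.547 to 0.722). The peaks were selected to overlap no CTCF peak, so the contrast with CTCF-overlapping peaks follows from the rule and is a description. Against windows under CTCF-free gene-end peaks, AP-1 was not alone. TEAD was higher by 6.14 points (2.12 to 10.8), RUNX by 4.87 (1.17 to 9.25), the E-box by 7.74 (1.57 to 13.7) and forkhead by 2.77 (0.772 to 5.68). ETS differed by −9.87 points (−13.3 to −5.82) and the GC box by −19.7 (−25.7 to −13.8). For the remaining motifs that interval included 0.

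HA was precipitated from A2 with a protein crosslinker added before formaldehyde, and its list was short, at 230 peaks. The labels do not name the HA-tagged protein, and the peak names in the file read HA-NIPBL. Of the 230, 154 (67.0%) overlapped a CTCF peak and 48 (20.9%) lay at CTCF-free distal RAD21 peaks. The 48 were 63.2% of the 76 HA peaks with no CTCF peak. These 48 sites had a median D7 DMSO fold of 6.97, against 4.60 for the 2138 other CTCF-free distal peaks. STAG1 overlapped 85.4% (72.8 to 92.8) of the 48 against 47.6% of the others, and STAG2 68.8% (54.7 to 80.1) against 37.9%. RAD21 was listed there more often than at the 2138 other CTCF-free distal peaks in all 4 dTAGV-1 lists, with 20.8% against 7.76% in A2 at 4 h, 66.7% against 31.8% at 24 h, 81.2% against 58.0% in D7 at 4 h and 70.8% against 34.4% at 24 h. The differences were 13.1 points (3.89 to 26.5), 34.9 points (20.6 to 46.7), 23.3 points (9.95 to 32.1) and 36.5 points (22.3 to 47.6). The fold band from 4 to below 6 held 15 HA sites. Among the dTAGV-1 lists, the interval in this band excluded 0 in D7 at 24 h alone, at 26.2 points (1.73 to 46.5). The STAG1 difference in the band was 28.1 points (2.64 to 44.2). For STAG2 it was 8.40 points with an interval that included 0 (−13.7 to 31.8).

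The strongest CTCF-free distal peak with HA lay inside SUSD1 on chromosome 9 from 112041267 to 112042540, 1148 bp from an end of the gene. Its HA fold was 6.37, with STAG1 at 10.4, STAG2 at 7.27 and PDS5A at 3.95. RAD21 had 13.1, no peak and 4.56 in A2 with DMSO, dTAGV-1 for 4 h and dTAGV-1 for 24 h, and 18.5, 5.22 and 3.22 in D7. The other, on chromosome 13 from 34155792 to 34157752, 179803 bp from the clamp-loader gene RFC3, had HA at 6.00, STAG1 at 10.2 and STAG2 at 6.04. RAD21 had 8.64, no peak and 6.01 there in A2 and 12.0, no peak and 4.50 in D7. In both clones the SUSD1 and RFC3 sites had RAD21 peaks at 24 h.

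Each peak was assigned to the protein-coding gene that holds its summit, or else to the gene with the nearest end, which names a neighbour and not a target. In all, 1254 of 19974 genes (6.28%) received at least 1 CTCF-free distal peak, and 60 genes with 5 or more took 400 of the 2186. RAD51B, a recombination repair gene of 863318 bp, and CITED2, a small gene for a transcriptional coregulator, had 12 each. At RAD51B 10 of the 12 lay inside the gene, and RAD21 was listed at 2 and 10 of them in A2 at 4 h and 24 h and at 10 and 7 in D7. All 12 beside CITED2 lay between 213579 and 1088372 bp away, 8 had STAG2 and 0 had PDS5A, and RAD21 was listed at 2 and 4 in A2 and at 3 and 3 in D7. ZMIZ1, which encodes a transcriptional coactivator, had 11, with STAG1 at 6 and STAG2 at 0, and RAD21 was listed at 0 and 1 in A2 and at 6 and 1 in D7. The neighbourhoods thus differed in STAG content and in what was listed after dTAGV-1.

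CUBN, PRKCH, SMAD3 and TOMM20 had 10 peaks each, TBL1XR1 had 9 and BNC2 had 8. SMAD3, which encodes a mediator of TGF-beta signalling, had STAG1 at 7 and STAG2 at 3 of its 10, 8 of them inside the gene. RAD21 was listed at 0 and 2 of the SMAD3 peaks in A2 and at 1 and 1 in D7. PRKCH, a protein kinase C gene, had STAG1 and STAG2 at 8 each, and RAD21 was listed at 3 and 6 in A2 and at 8 and 5 in D7. CUBN, all 10 inside the gene, had RAD21 at 2 and 6 in A2 and at 7 and 7 in D7, and TOMM20 at 3 and 5 and at 7 and 6. SMAD3 and ZMIZ1 thus had few of their peaks listed at 24 h in either clone, and PRKCH, CUBN and TOMM20 5 or more. Over all CTCF-free distal peaks the 24 h lists held 32.6% in A2 and 35.2% in D7. The median D7 DMSO fold was 5.78 for SMAD3, 4.27 for ZMIZ1, 5.47 for PRKCH, 5.46 for CUBN and 6.61 for TOMM20. The part of peak strength in these small counts was not tested.

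Among gene lists chosen for this cell type with earlier results of these data known, genes with a CTCF-free distal peak made up 11 of 22 YAP/TEAD targets, 6 of 14 AP-1 and immediate early genes, 10 of 22 TGF-beta and matrix genes, 7 of 14 epithelial-mesenchymal regulators and 9 of 16 cytoskeleton and adhesion genes. They made up 1 of 19 retinal pigment epithelium identity genes and 1 of 16 housekeeping genes, RPL3. Read against 6.28% of all protein-coding genes, the first 5 lists lay between 42.9% and 56.2% and the last 2 at 5.26% and 6.25%. Genes of the lists differ in length, with medians from 5842 bp for the AP-1 list to 137392 bp for the epithelial-mesenchymal list and 24170 bp for all genes, and the part of length and of neighbouring gene density was not tested.

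Single genes carried many of these peaks. JUN, which encodes an AP-1 subunit, had 8, from 7191 to 148968 bp away, with folds from 3.51 to 11.4, STAG1 and STAG2 at 5 each and HA at 1. RAD21 was listed at 1 and 4 of the JUN peaks in A2 and at 6 and 3 in D7. TGFB2 had 7, all with STAG2 and 3 with STAG1, and RAD21 was listed at 2 and 5 in A2 and at 5 and 4 in D7. IGFBP3 also had 7, with STAG1 and STAG2 at 2 each and RAD21 at 0 and 1 in A2 and 4 and 3 in D7. SOX9, a transcription factor gene of this epithelium, had 7 between 144868 and 487484 bp away, with STAG2 at 4 and RAD21 at 1 and 4 in A2 and 4 and 5 in D7. RUNX2 had 6, ZEB2 5 and RUNX1 4, all transcription factor genes of the epithelial-mesenchymal list. PTPN14, a YAP pathway gene, had 4 inside the gene, all with STAG2. At PTPN14 RAD21 was listed at 0 and 1 of the 4 in A2 and at 0 and 0 in D7. Of the matrix and TGF-beta genes COL1A2, FN1 and SMAD7 had 3 each, with STAG2 at 3, 3 and 1. MYOF of the YAP/TEAD list had 3 with STAG2 at 0, and DUSP1, FOSL2 and IER2 of the AP-1 list had 2 each with STAG2 at 0.

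Counted in each list by itself, rather than at the sites of both DMSO lists, CTCF-free distal RAD21 peaks in A2 numbered 4132 for DMSO, 488 for 4 h and 2329 for 24 h. In D7 they numbered 4628, 6363 and 2123. Relative to DMSO the ratios were 0.118 and 0.564 in A2 and 1.37 and 0.459 in D7. These peaks made up 10.4%, 1.89% and 8.15% of the A2 lists and 12.3%, 16.3% and 7.05% of the D7 lists. Of the 6363 in D7 at 4 h, 34.0% overlapped any peak of the DMSO list of the clone, and of the 488 in A2 at 4 h, 54.1% did. With −log10 q at 10 or above the D7 ratio at 4 h was 0.875, so its direction changed with the threshold, and at that threshold the A2 ratio at 24 h was 0.870 and the D7 ratio at 24 h 0.274. With all 6 lists reduced to an equal length, the direction in A2 changed too, to 3.30 at 4 h and 9.16 at 24 h, and the D7 ratio at 24 h was 0.914.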

How the data were processed

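The 12 peak lists, each called on 1 immunoprecipitation, were used as deposited. The submitters' processing notes name BWA, Picard, SAMtools, bedtools, deepTools and MACS2 and the builds hg38 and mm10, without versions or roles. The score, the fold enrichment (a ratio), the −log10 p and −log10 q of each peak are the values the authors deposited, and the summit offset is theirs too. Per the files, the lowest −log10 q was 3.09 in the CTCF list and between 2.00 and 2.53 in the others. The kit and size selection used for CTCF were not those of the other targets, per the labels' protocols. CTCF was mapped in wild-type cells only.

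Overlaps were computed from the lists with Python 3.11.15, numpy 2.4.6, pandas 2.3.3 and scipy 1.17.1, with at least 1 bp shared, and the functions were tested on simulated data. No peaks overlapped within a list. Coordinates are counted from 1 and gene names, gene ends (19974 protein-coding genes) and promoter windows (35116, of 300 bases) come from RefSeq GRCh38.p14, which is the same assembly series as the hg38 of the submitters' notes. The gene table holds no strand or exons, so exon and intron were not analysed here. The background pileup was solved from fold and −log10 p by a Poisson tail, taking fold as a ratio of pileups that each had 1 added, and pileups came out whole within 0.001 on the −log10 scale for 100% of the peaks of 11 lists and 0% of those of HA, among peaks whose −log10 p was under 250. It scales with reads and fragment length. No spike-in factor was applied.

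With 1 library per group there was no test between groups and no p-value. Shares carry 95% Wilson and differences of shares 95% Newcombe intervals, and the limit for a count of 0 is 3 counts of the total. The set of peaks, the gene lists and the fold bands were chosen with earlier results of these data known. Named peaks are, by clone D7 DMSO fold and leaving out chromosome 8, the 4 highest of all (the 2 PKDCC peaks, SUSD1 and TBL1XR1), the 4 highest with a peak in every dTAGV-1 list, the 4 highest with a peak in no such list, the 3 highest with STAG1 or STAG2 alone, the 2 highest with HA and the 2 widest; none had WAPL. Named genes are the 10 with most peaks, of which 1 on chromosome 8 is left out, and up to 4 of each gene list. Motifs in summit windows, planned before, were replaced by RefSeq promoter windows, as no genome was used here. Alternatives covered the overlap, list length, q, the distance to CTCF and to gene ends, non-coding gene ends, the other clone as source and, added after seeing the data, removal of peaks within 1 kb of a promoter start.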

Additional observations from a re-analysis of the deposited data

Results flagged for a closer look

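CTCF-free distal RAD21 peaks went opposite ways in the clones at 4 h of dTAGV-1. Their number relative to DMSO was 0.118 in A2 and 1.37 in D7, a contrast between the clones that could not be tested with 1 library in each. The opposite directions were lost under 2 alternatives: with lists of equal length both ratios were above 1 (3.30 and 1.49), and with −log10 q at 10 or above both were below 1 (0.116 and 0.875). The background pileup at 4 h was 3.16 in A2 and 4.05 in D7, against 1.87 and 3.00 in DMSO, so both 4 h libraries were deeper than their controls by this measure.

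From 4 h to 24 h, the share of the 2186 CTCF-free distal peaks with a RAD21 peak rose by 24.5 percentage points in A2 and changed by −23.3 points in D7. This contrast was likewise not tested. With lists of equal length, D7 had 44.3% at 4 h and 43.0% at 24 h of 79 peaks, while A2 had 39.2% and 55.7%. The pileup at 24 h was 2.83 in A2 and 3.07 in D7, in both cases below that at 4 h.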

How the results depend on the processing

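No paired analysis was possible because each group held 1 library, and no library could be left out. The intended 100-base summit window for motifs was not run, as no genome was used here. In order, shares below are for A2 at 4 h and 24 h and D7 at 4 h and 24 h. They were 6.82%, 30.5%, 55.8% and 32.1% when the treated peak had to hold the summit, and 4.25%, 27.4%, 51.6% and 27.7% with at least 50% of the length overlapped. With RAD21 lists of equal length they were 39.2%, 55.7%, 44.3% and 43.0% of 79 peaks. With −log10 q at 5 or above they were 6.34% in A2 at 4 h, 55.7% in D7 at 4 h and 32.1% at 24 h, and with −log10 q at 10 or above 3.87%, 28.2%, 47.6% and 21.5%. More than 5 kb from gene ends, A2 at 24 h had 35.1%, and 43.3% of the peaks lay inside genes.

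The difference from CTCF-overlapping distal peaks kept its sign and its side of 0 in all alternatives run on the whole set. Within fold bands, chosen after seeing the data, it did not: STAG1 turned to 6.76, 15.1 and 18.3 points in the 3 bands below 8 and STAG2 to 9.68 and 25.8 in the bands from 4 to below 8. The interval included 0 for STAG2 at 8 and above, for HA and for D7 at 4 h below 4, and for WAPL in the 3 bands below 8. On the whole set, the difference from CTCF-free gene-end peaks no longer excluded 0 in 8 cases, without changing sign. In D7 at 24 h these were −2.03 points with the summit, −0.102 with 50% of the length, −2.91 at equal length and −4.44 with −log10 q at 10 or above. In D7 at 4 h they were −17.9 at equal length and −4.24 at that q, and in A2 at 4 h 14.9 and 2.05. Within fold bands, the gene-end interval included 0 in A2 at 4 h in all bands from 4 upward. At 24 h in A2 it did so from 6 to below 8. In D7 it did so at 4 h at 8 and above, and at 24 h below 4 and at 8 and above. For HA and WAPL it included 0 in every band. The cause was not tested.

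Of partner peaks that had to hold the summit, STAG1 gave 45.7%, STAG2 35.7% and PDS5A 11.7%. Lists of equal length gave 26.5% for STAG1 and 7.78% for PDS5A. With partner −log10 q at 5 or above, STAG1 gave 40.9%, STAG2 34.2%, PDS5A 10.8% and HA 1.56%. No CTCF peak within 1 kb gave 41.2% for STAG2, and with no promoter start within 1 kb, chosen after seeing the data, STAG1 gave 44.8%, STAG2 42.6% and PDS5A 10.2%. The PDS5A difference between STAG1-only and STAG2-only peaks ran from 19.8 to 32.0 points. The number of CTCF-free distal peaks relative to DMSO changed direction to 0.875 in D7 at 4 h with −log10 q at 10 or above, and to 3.30 and 9.16 in A2 at 4 h and 24 h at equal length. It was 0.870 in A2 and 0.274 in D7 at 24 h at that q, and 0.914 in D7 at 24 h at equal length; cutting every list to the shortest removes the weakest peaks of the longer ones.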
